A study of Mus musculus with 6 samples.

Results

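T cells from the injured enthesis of the rotator cuff, where tendon joins bone, were described at 7 days post injury (dpi) in 6 single-cell RNA libraries of mouse. A barcode was counted as a T cell when it held at least 1000 unique molecular identifiers (UMIs, each standing for 1 captured RNA molecule), at least 200 genes and at most 10% mitochondrial UMIs, with at least 2 UMIs of Cd3d, Cd3e and Cd3g together. It also had to hold 0 UMIs of Ncr1 (a natural killer receptor) and of Cd79a (a B cell receptor chain), at most 2 UMIs of C1qa, C1qb and C1qc (macrophage complement genes), and under 0.5% of UMIs from the collagen genes Col1a1, Col1a2 and Col3a1. This gave 1368 T cells of 85339 cells. They were split by single transcripts into a Cd4 class (181 cells), a Cd8a class (269 cells) and a Trdc class (179 cells), each with at least 1 UMI of its own gene and 0 of the others. A further 4 cells held more than 1 of these genes and 735 held none. These transcripts chose the members, so differences between T cells and other cells, or between the classes, are descriptions here and carry no test.

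Of the 6 libraries, 3 came from wild-type C57BL/6 mice and 3 from Nlrp3-/- mice, which lack in all cells a sensor protein that assembles the inflammasome, the complex that releases the cytokine IL-1β. All animals had the enthesis injured and repaired. Entheses were pooled for each library, and neither the number nor the sex of the animals behind a library is given in the labels, so p-values measure only the spread between libraries. The titles of all 3 knockout libraries name Nlrp3, while their genotype field names Nlrp4 for replicate 2 and Nlrp5 for replicate 3. Nlrp3 itself had 0 UMIs in the T cells of all 3 Nlrp3-/- libraries.

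T cells recognise antigen through a receptor whose signal is carried into the cell by the CD3 proteins. Most carry an αβ receptor with either the CD4 coreceptor, found on helper and regulatory cells, or the CD8 coreceptor, found on cytotoxic cells, while γδ T cells carry a different receptor and are known in barrier and connective tissues as an early source of interleukin 17 (IL-17). In healing tissue, regulatory T cells are known for restraining inflammation and for releasing the growth factor amphiregulin, and IL-17 is known for recruiting neutrophils.

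The libraries held 97042713 to 134901999 UMIs. They held 9903 to 22048 cells, with a median of 2069 UMIs per cell in Nlrp3-/- replicate 1 and of 4874 to 7421 in the others. T cells were read to a median of 2614.5 to 3452 UMIs and 1155 to 1368 genes per library. Of 84579 distinct cell barcodes, 758 occurred in 2 or more libraries, and 0 were a T cell in 2 libraries.

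The label was checked against markers that the rule did not use. Trac, the constant part of the α chain, was found in 890 T cells (65.1%) and Trbc2, of the β chain, in 1067 (78.0%), against 1.04% and 0.17% of B cells. B cells, taken as cells with at least 2 UMIs of Cd79a and 0 of the Cd3 genes, should lack both transcripts and were read to a median of 1898.5 to 4595 UMIs per library. With every cell thinned to 1000 UMIs, Trac was found in 35.7% and Trbc2 in 51.2% of T cells. At least 1 UMI of Trac, Trbc1, Trbc2 or Trdc was present in 88.2% to 96.6% of the T cells of each library. Natural killer cells, defined below, were less distinct from T cells in Trbc2 and Trdc than in Trac. Per UMI, T cells exceeded them 34.8-fold for Trac, 5.91-fold for Trdc and 5.49-fold for Trbc2. Against all cells other than T cells, the ratio of Trbc2 was 302-fold. Compared per UMI with all other cells, the genes with the highest ratio included Icos, Bcl11b, Cd6 and Sh2d1a beside the receptor genes, and Il17a came first at 302-fold, with levels from 55.9 CPM (UMI counts scaled to 1000000 per library) in wild-type replicate 3 to 4241 CPM in Nlrp3-/- replicate 1.

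The other 103 T cells held no receptor constant UMI, and RNA of neutrophils made up a large part of them. Summed over the 10 neutrophil marker genes, these barcodes held 152962 to 380859 CPM, against 15271 to 63134 CPM for all T cells of a library. The threshold on Cd3 bears on this. Members with exactly 2 Cd3 UMIs numbered 164, and 25.0% to 85.7% of them held a receptor constant UMI, depending on the library. Cells just outside, with 1 Cd3 UMI, numbered 943, and 5.49% to 36.9% of them did.

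The 3 classes carried different programmes, shown in the plot of detection by class. The Cd8a class was cytotoxic in its transcripts. Ccl5, a chemokine of effector T cells, was found in 258 of its 269 cells (95.9%) and Nkg7, a granule protein, in 255 (94.8%), against 1.36% and 3.12% of B cells. The β chain of the CD8 coreceptor, Cd8b1, was found in 170 cells, the receptor Klrd1 in 192 and the granzymes Gzmb and Gzmk in 77 and 75. Ifng, encoding interferon γ, was found in 95 cells, 28 of which also held Gzmk. Foxp3 and Il17a were each found in 0 of the 269 cells, which allows up to 1.12% of cells with a UMI and sets no limit on cells that express either gene. Only 17 of these cells held Ccr7, a homing receptor of lymph nodes.

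The Cd4 class was mixed. Ctla4, an inhibitory receptor, was found in 100 of 181 cells (55.2%) and the costimulatory receptor Tnfrsf4 in 83 (45.9%), against 1.02% and 0.397% of B cells. Foxp3, the transcription factor that defines regulatory T cells, was found in 34 cells (18.8%). Of these 34 cells, 31 also held Ctla4, 23 held Il2ra (the α chain of the interleukin 2 receptor), 18 held Areg (amphiregulin) and 13 held Il1rl1 (the receptor of interleukin 33). The shares among the Foxp3-negative cells of the class were lower, at 46.9% for Ctla4, 10.2% for Il2ra, 15.6% for Areg and 9.52% for Il1rl1. Ifng was found in 42 cells of the class and Il17a in 15, and no cell held more than 1 of Foxp3, Ifng and Il17a. Tnfsf11, which encodes the osteoclast factor RANKL, was found in 50 cells (27.6%) of the Cd4 class, in 4 of the Cd8a class and in 3.51% of B cells. The type 2 cytokines were rare, with Il13 in 6 and Il4 in 4 of all 1368 T cells.

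The Trdc class carried the transcripts of IL-17-producing γδ T cells. Il17a was found in 80 of its 179 cells (44.7%), the scavenger receptor gene Cd163l1 in 112 (62.6%), the γ chain constant gene Tcrg-C1 in 105 (58.7%), the chemokine receptor Cxcr6 in 111 (62.0%), and the kinase Blk in 83 (46.4%). In B cells Il17a was found in 0.113%, Cd163l1 in 0.0378% and Cxcr6 in 0.113%, while Blk, which B cells use, was found in 21.4%. The receptors of 2 cytokines that drive IL-17 were also present, with Il1r1, the IL-1 receptor, in 64 cells and Il23r in 36. Il1r1 was found in 7.18% of the Cd4 class, 0.743% of the Cd8a class and 4.06% of B cells. Cd163l1 was unevenly shared within the class. Among cells with Il17a, 86.2% held Cd163l1, against 43.4% of those without, and of the 112 cells with Cd163l1 1 held Ccl5, against 52.2% of the others. Trbc2 was found in 128 cells of the class (71.5%) and Trac in 38 (21.2%).

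**Figure D1:**
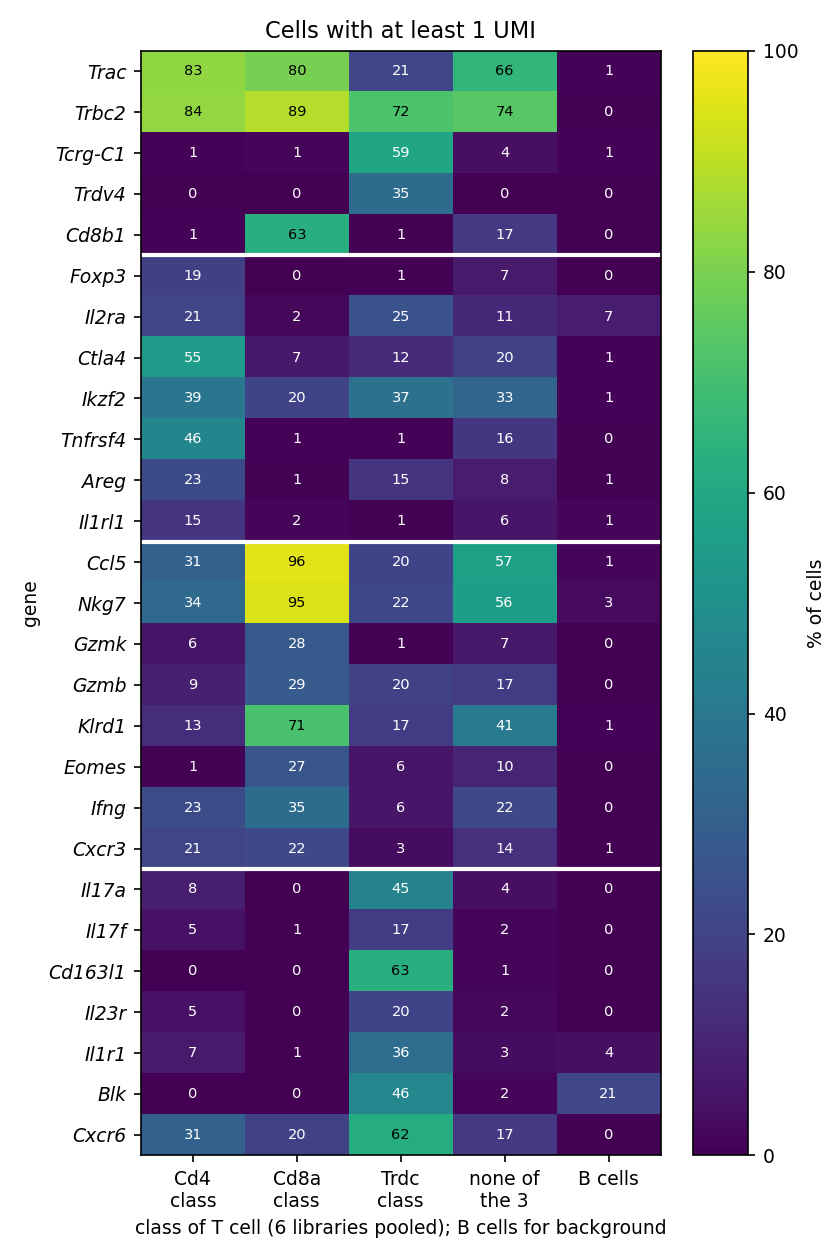
Heat map of the share of cells with at least 1 UMI of each gene (rows, grouped from top to bottom as receptor, regulatory, cytotoxic or type 1, and type 17 genes) in each class of T cell and in B cells (columns), with the 6 libraries pooled and the rounded percent printed in each field. Ccl5 and Nkg7 fill the Cd8a class, Ctla4 and Tnfrsf4 are highest in the Cd4 class, and Cd163l1, Il17a and Blk are highest in the Trdc class.

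Few receptor segments were read, because the 3′ chemistry captures the far end of the transcript. Of the δ chain variable segments, Trdv4 gave 140 of 148 UMIs, and it was seen in all 6 libraries, with 7, 16 and 19 UMIs in the wild-type and 62, 14 and 22 in the Nlrp3-/- libraries. Trdv1 gave the other 8 UMIs, all in wild-type replicate 1. Of the γ segments, Trgv2 gave 62 of 98 UMIs and Tcrg-V6 gave 15. All 14 cells with Tcrg-V6 were of the Trdc class, and 13 of them held Cd163l1. The α segments, with 107 UMIs over 128 listed genes, and the β segments, with 109 UMIs over 35, were too thinly read to rank.

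The first comparison asked whether the number of T cells differed between the genotypes. T cells made up 1.34% (Wilson 95% confidence interval 1.15% to 1.55%), 1.46% (1.29% to 1.66%) and 1.63% (1.39% to 1.89%) of the cells in wild-type replicates 1, 2 and 3. In Nlrp3-/- replicates 1, 2 and 3 they made up 1.14% (1.01% to 1.29%), 1.99% (1.75% to 2.26%) and 2.42% (2.17% to 2.69%). Nlrp3-/- replicate 1 was the lowest of all 6 libraries and the other 2 knockout libraries were the highest, so the groups overlapped. At a minimum of 2000 UMIs it stood at 1.62%, above wild-type replicates 1 and 2 (1.41% and 1.30%), and the groups still overlapped. Of its 355 barcodes with at least 2 Cd3 UMIs the rule left out 103, and 78 of the 355 exceeded the collagen limit. The other libraries lost 20 to 49 such barcodes to the rule. The means were 1.48% ± 0.145 and 1.85% ± 0.648 (SD, n = 3 each), and the exact two-sided permutation test gave p = 0.4 (adjusted p = 0.7 over the 7 share comparisons). With 3 libraries against 3 its smallest possible p is 0.1. Intervals cover counting error only.

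The balance of T cells and natural killer (NK) cells, defined as barcodes with at least 1 UMI of Ncr1 and 0 of the Cd3 genes under the same limits, separated the groups. T cells were 88.0%, 80.8% and 83.4% of T and NK cells in the wild-type and 94.0%, 94.0% and 91.5% in the Nlrp3-/- libraries. The groups did not overlap, with means of 84.1% ± 3.66 and 93.2% ± 1.44 (SD, n = 3 each), and the exact permutation test gave its smallest possible p of 0.1 (adjusted p = 0.35). The counts behind it were 23, 54 and 32 NK cells in the wild-type and 16, 15 and 30 in the Nlrp3-/- libraries. With cells thinned to 1000 UMIs the means were 89.0% and 93.5%, again without overlap.

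The shares of the classes overlapped between the genotypes, as the plot of shares by library shows. The Cd8a class was 14.2%, 11.5% and 31.7% of T cells in the wild-type and 13.5%, 31.5% and 18.5% in the Nlrp3-/- libraries, so wild-type replicate 3 and Nlrp3-/- replicate 2 stood above the other 4 libraries. The Trdc class ran from 6.83% in wild-type replicate 3 to 20.6% in Nlrp3-/- replicate 1. The Cd4 class was 10.7%, 11.01% and 11.2% in the wild-type and 13.9%, 9.79% and 19.1% in the Nlrp3-/- libraries. Cells with at least 2 UMIs of the division genes Mki67 and Top2a were 15.4%, 10.6% and 6.21% of T cells in the wild-type and 15.5%, 6.81% and 11.7% in the Nlrp3-/- libraries. For these 4 shares the groups overlapped and the exact permutation p ran from 0.4 to 1. For the Cd8a class, the Trdc class and the dividing cells, the sign of the difference between the means changed with the library left out.

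Within the Cd4 class, the share with Foxp3 was 5.56% (1 of 18 cells), 12.0% (3 of 25) and 11.1% (2 of 18) in the wild-type libraries. It was 17.1% (6 of 35), 26.1% (6 of 23) and 25.8% (16 of 62) in the Nlrp3-/- libraries. The groups did not overlap, with means of 9.56% ± 3.49 and 23.0% ± 5.08 (SD, n = 3 each), and the exact permutation test gave its smallest possible p of 0.1 (adjusted p = 0.35). The Wilson 95% intervals of single libraries were wide and overlapped, from 0.988% to 25.8% in wild-type replicate 1 and from 16.6% to 37.9% in Nlrp3-/- replicate 3. After thinning to 1000 UMIs only 5 to 11 cells per library stayed in the class. Foxp3 was then found in 0 cells of the wild-type libraries and in 1, 2 and 0 cells of the Nlrp3-/- libraries, and the groups overlapped. The class held 34 of the 89 Foxp3-positive T cells. Over all T cells the share with Foxp3 was 5.33%, 6.17% and 2.48% in the wild-type and 6.35%, 6.38% and 9.57% in the Nlrp3-/- libraries, which did not overlap but lay close. Among the T cells without Cd4, Cd8a or Trdc, which held 53 of the 89, it was 5.83%, 8.27% and 2.50% against 7.69%, 7.89% and 8.57%, which overlapped.

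**Figure D2:**
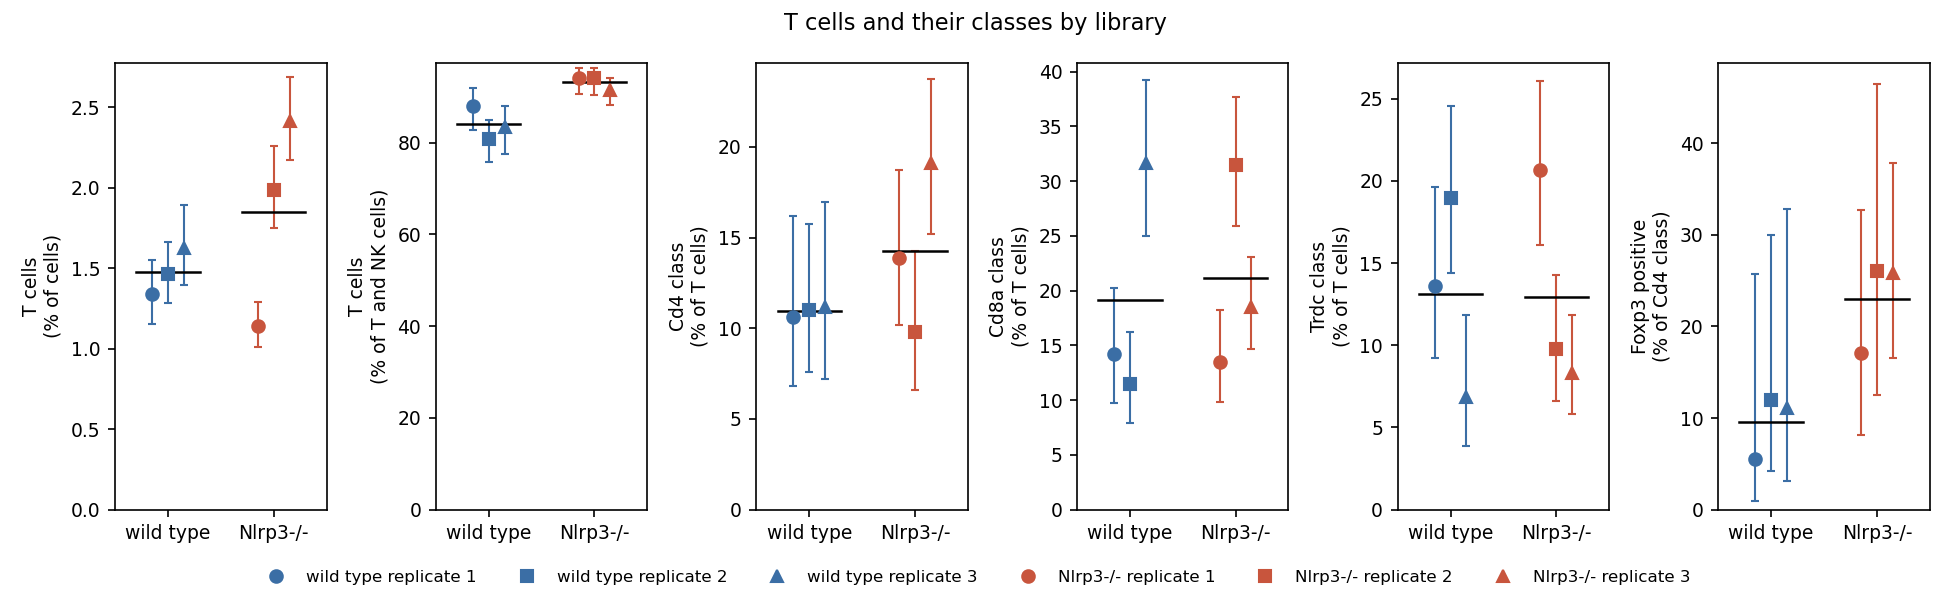
Share of T cells, of each class and of Foxp3-positive cells in each library (points, with Wilson 95% confidence intervals) by genotype (horizontal axis), with the group mean as a black line and a separate percent axis from 0 in each panel. The groups separate for T cells among T and NK cells and for Foxp3-positive cells in the Cd4 class, and overlap in the other 4 panels.

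Il17a was unevenly spread, and a few cells held most of it. It gave 69, 354 and 36 UMIs in the T cells of the wild-type libraries and 4217, 222 and 97 UMIs in those of the Nlrp3-/- libraries, from 16, 34, 2, 37, 13 and 23 cells in that order. In Nlrp3-/- replicate 1, 5 cells held 3396 of the 4217 UMIs (80.5%), with 1105, 883, 671, 382 and 355 UMIs each, and in 1 of them Il17a made up 18.1% of all UMIs. All 13 T cells with at least 50 Il17a UMIs were of the Trdc class, and 11 of the 13 lay in this library. Over all libraries the Trdc class held 96.5% of the Il17a UMIs of T cells. Nlrp3-/- replicate 3 differed, since 9 cells of the Cd4 class held 54 of its 97 UMIs and 8 cells of the Trdc class held 24. T cells held 76.7% to 95.8% of the Il17a UMIs of all cells of a library.

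**Figure D3:**
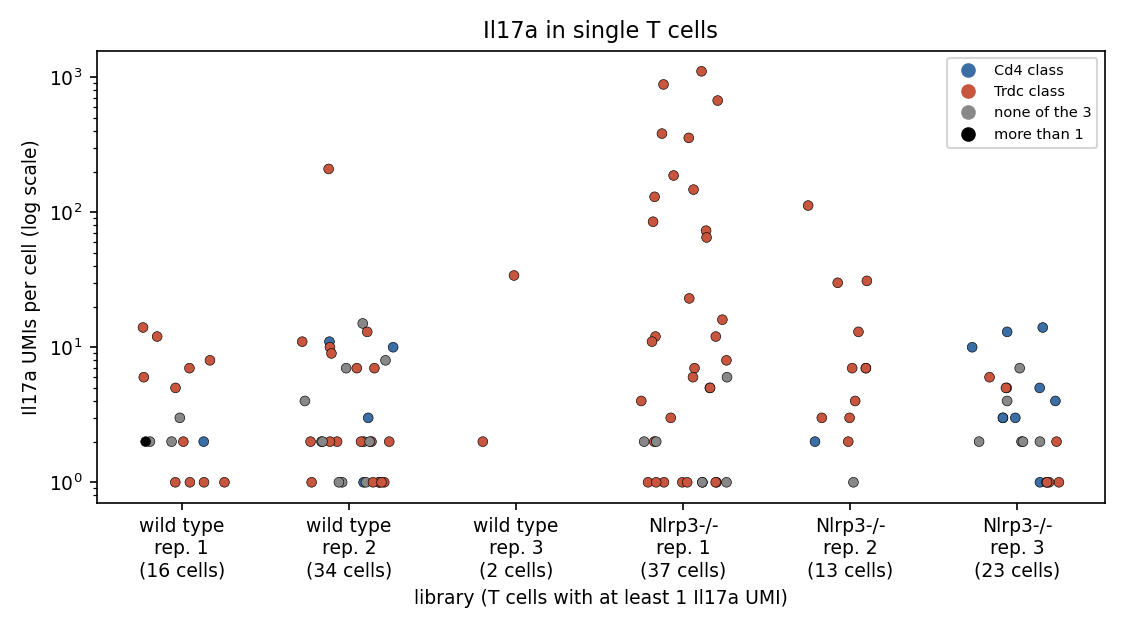
Il17a UMIs (vertical axis, log scale) of every T cell with at least 1 Il17a UMI, by library (horizontal axis, with sideways scatter for legibility) and coloured by class. The 11 highest cells of Nlrp3-/- replicate 1, from 65 to 1105 UMIs, all belong to the Trdc class, and the other libraries hold 0 or 1 cell at 50 UMIs or more.

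As a level in summed T cells, Il17a was 78.4, 360 and 55.9 CPM in the wild-type and 4241, 237 and 80.9 CPM in the Nlrp3-/- libraries. The log2 fold change of 2.96 ± 1.11 (SE) did not pass the threshold (edgeR, adjusted p = 0.32), and without Nlrp3-/- replicate 1 it turned to -0.30. With no filter on low counts the same comparison passed for Il17a (adjusted p = 7.96e-39) and Il17f (adjusted p = 4.43e-39). Il17f, the partner cytokine, had 1389 CPM in Nlrp3-/- replicate 1 and 0 to 102 CPM in the other 5 libraries, and its log2 fold change of 3.38 turned to -1.69 without that library. The share of Trdc class cells with Il17a was 47.8%, 41.9% and 18.2% in the wild-type and 57.7%, 47.8% and 29.6% in the Nlrp3-/- libraries, which overlapped.

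The next comparison asked which genes differed between the genotypes when the UMIs of all T cells were summed per library. At an adjusted p under 0.05 (edgeR quasi-likelihood test, Benjamini-Hochberg over all genes tested), 30 of 7807 genes differed (0.384%), 8 higher (0.102%) and 22 lower (0.282%) in Nlrp3-/- libraries. Without wild-type replicate 3 the count was 336, without wild-type replicate 2 it was 17 and without Nlrp3-/- replicate 3 it was 11. The DESeq2 Wald test, which left most adjusted p-values undefined, called 101, with 4 higher and 97 lower. Of the 30 genes, 3 were among them and 27 had no adjusted p. The median log2 fold change over all genes tested was 0.02. The groups did not overlap for 1694 genes (21.7%), so separation of single genes is common in these libraries. The plot of fold change against p shows the called genes.

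**Figure D4:**
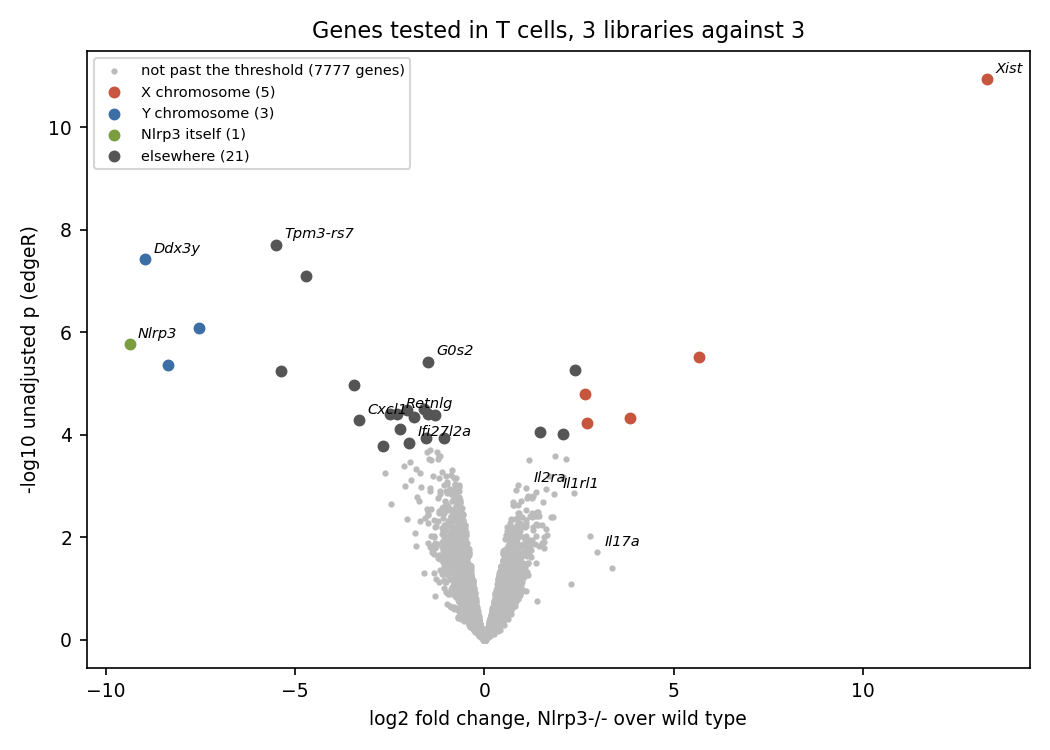
Log2 fold change of Nlrp3-/- over wild type (horizontal axis) against the negative log10 of the unadjusted edgeR p (vertical axis) for the 7807 genes tested in summed T cells, with the 30 called genes as large points coloured by chromosome. Xist stands alone at the upper right, the Y-linked genes and Nlrp3 lie at the far left, and Il17a, Il2ra and Il1rl1 lie below the called genes.

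Nlrp3 (chromosome 11, 59541568 to 59566956, GRCm38) was low in wild-type T cells, at 27.3, 101 and 123 CPM, and at 0 UMIs in the Nlrp3-/- libraries. Against a floor of 3 counts in each knockout library, this was at least 28.7-fold lower. Its level was 3.98 times higher in the members without a receptor constant UMI than in all T cells, and it was found in 1 cell of the Cd4 class, 14 of the Cd8a class and 9 of the Trdc class. No other called gene lay within 20 Mb of it, among 248 genes tested there.

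Genotype and sex of the libraries cannot be told apart. Xist, the RNA that silences 1 X chromosome in female cells, had 0 UMIs in the wild-type T cells and 1404, 1532 and 1277 CPM in the Nlrp3-/- libraries, at least 379-fold higher against the same floor in each wild-type library. The Y-linked genes Ddx3y and Eif2s3y had 46.6, 54.9 and 85.3 CPM and 15.9, 42.7 and 66.7 CPM in the wild-type and 0 UMIs in the Nlrp3-/- libraries. Of the 30 called genes 5 lay on X, among 227 tested there, and 3 on Y, among 4 tested. Elsewhere 21 of 7328 were called, and over all genes 30 of 7807 (0.384%). Every genotype difference given here is therefore also a difference between libraries with and without these transcripts. The median share of mitochondrial UMIs also differed without overlap, at 1.10% to 1.59% in the wild-type and 1.74% to 2.83% in the Nlrp3-/- T cells. The summed erythroid list, mainly haemoglobin genes, was 3.05 to 19.3 CPM in the wild-type and 114 to 849 CPM in the Nlrp3-/- T cells. The part of either in the differences was not tested.

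Among the 21 called genes outside those regions, Tpm3-rs7, a near copy of the tropomyosin gene Tpm3, was 198, 78.3 and 192 CPM in the wild-type and 5.03, 2.14 and 4.17 CPM in the Nlrp3-/- libraries. Its log2 fold change was -5.50 ± 0.447 (SE, adjusted p = 7.6e-05), and reads may be divided between it and its parent gene. AC149090.1, on the unplaced scaffold JH584304.1, was higher, from 35.2, 26.4 and 54.3 to 91.5, 137 and 132 CPM (log2 fold change 1.46 ± 0.26, adjusted p = 0.0277), but its call was lost without wild-type replicate 1 or 2 or Nlrp3-/- replicate 2 or 3, with adjusted p of 0.0911 to 0.18. It was also lost under stricter limits on RNA of other cells (0.0698), with a receptor constant UMI required (0.0857) and after thinning (0.155). Tpm3-rs7 and Xist were also the genes called in the Cd8a class alone, where 2 of 2667 genes passed (0.075%), 1 in each direction (0.0375% each). Without wild-type replicate 1, wild-type replicate 3 or Nlrp3-/- replicate 1, 5, 11 and 4 genes passed there.

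Of the genes called lower in the T cells of the Nlrp3-/- libraries, 5 are described here. Retnlg, a neutrophil secreted protein, was 1638, 935 and 2563 CPM in the wild-type and 395, 580 and 207 CPM in the Nlrp3-/- libraries (log2 fold change -2.31 ± 0.376, adjusted p = 0.0168). Chil3, a chitinase-like protein of myeloid cells, was 479, 421 and 118 against 31.2, 109 and 48.4 CPM (-2.68 ± 0.511, adjusted p = 0.0437). G0s2, a regulator of lipid breakdown, was 258, 247 and 321 against 106, 130 and 104 CPM (-1.48 ± 0.192, adjusted p = 0.00362). Acod1, the itaconate-making enzyme of activated myeloid cells, and Hcar2, a receptor of hydroxybutyrate and niacin, fell by 2.51 and 2.22 on the log2 scale. Each of these 5 calls was lost when Nlrp3-/- replicate 3 was left out, with adjusted p of 0.0618 for G0s2, 0.0859 for Retnlg, 0.135 for Acod1, 0.137 for Hcar2 and 0.244 for Chil3. The log2 fold change of Chil3 was -3.34 without Nlrp3-/- replicate 2. The calls of Retnlg and Chil3 were also lost without wild-type replicate 1 (0.0579 and 0.164) or Nlrp3-/- replicate 1 (0.0704 and 0.15), those of Chil3, Acod1 and Hcar2 without wild-type replicate 2 (0.159, 0.0986 and 0.0689), and that of Acod1 without Nlrp3-/- replicate 2 (0.0557).

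The level of neutrophil RNA also differed between the genotypes, and its part in the lower values was not tested. The summed neutrophil list was 31192 to 63134 CPM in the wild-type and 15271 to 30981 CPM in the Nlrp3-/- T cells, without overlap. Of the 10 genes of the list 2 were called lower, G0s2 and Retnlg (against 0.282% of all genes), the groups did not overlap for 4 (against 21.7%), and the median log2 fold change was -0.94, against 0.02 over all genes tested. Of the 5 tested genes of the monocyte and macrophage list 0 were called by edgeR, while 4 had an unadjusted p under 0.05 (80.0%, against 11.6% of all genes, with 3 lower and 1 higher), with a median of -0.72 and sums of 1618 to 2823 CPM in the wild-type and 1327 to 1864 CPM in the Nlrp3-/- T cells, which overlapped. S100a8 and S100a9, the main genes of the neutrophil list, had log2 fold changes of -1.37 (adjusted p = 0.0975) and -1.22 (adjusted p = 0.0597). Both passed with DESeq2 (adjusted p = 0.000376 and 0.000253) and after thinning (0.047 and 0.0463). Lower calls were the rule with DESeq2, at 97 lower and 4 higher over all genes. With a receptor constant UMI required the log2 fold changes of S100a8 and S100a9 were -0.45 and -0.28, and with at least 3 Cd3 UMIs -0.62 and -0.56. Under the stricter limits given below they were -0.44 and -0.87. Those limits cap the UMIs of these same 2 genes, so the last values are bounded by the filter itself. Of the 22 genes called lower, 11 were at least 3 times higher in the members without a receptor constant UMI, namely Nlrp3, G0s2, Hdc, Acod1, Retnlg, Mcemp1, Trib1, Hcar2, Msrb1, Cyp4f18 and Chil3, and of the 8 called higher 0 were. Over all 7807 genes tested, 215 (2.75%) were. This grouping was made after the values were seen. When T cells had in addition to hold under 1% of UMIs from S100a8 and S100a9, under 1% from haemoglobin genes and 0 UMIs of Csf1r, which left out 8.51% to 18.3% of them, 13 genes were called. Of the 30 called genes 21 could then be tested and 13 of these were called. Retnlg (log2 fold change -1.90 ± 0.446, adjusted p = 0.136) and Chil3 (-1.40 ± 0.572, adjusted p = 0.429) were among those that lost the call, and G0s2 was too low to be tested. With at least 1 receptor constant UMI required instead, Retnlg was still called lower (-1.31 ± 0.234, adjusted p = 0.0426) and the calls of Chil3 (-1.80 ± 0.535, adjusted p = 0.279), G0s2 (-0.81 ± 0.23, adjusted p = 0.262), Acod1 (-2.01, adjusted p = 0.23) and Hcar2 (-1.70, adjusted p = 0.167) were lost.

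Cxcl1 and Ifi27l2a kept their calls under those stricter limits. Cxcl1, a chemokine that attracts neutrophils, was low, at 22.7, 95.6 and 37.2 CPM in the wild-type and 10.1, 4.28 and 4.17 CPM in the Nlrp3-/- libraries (log2 fold change -3.31 ± 0.554, adjusted p = 0.0181, and 0.0151 under the stricter limits). Its level over all other cells was 170 CPM, above that in T cells, and what part of it came from RNA of other cells was not tested. Ifi27l2a, an interferon-induced gene, was 1228, 1120 and 360 CPM in the wild-type and 257, 241 and 311 CPM in the Nlrp3-/- libraries (-1.98 ± 0.371, adjusted p = 0.0381, and 0.0488 under the stricter limits). Wild-type replicate 3 lay near the knockout libraries, and the call held only when that library was left out, with adjusted p of 0.135 to 0.166 without any 1 of the others. The call of Cxcl1 was lost without wild-type replicate 2 (log2 fold change -2.45, adjusted p = 0.0689) and without either Nlrp3-/- replicate 2 (0.0768) or 3 (0.15).

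Genes of T cell function were read as lists, against a called share of 0.384% over all genes, at which lists of this size hold few or no calls. Of 31 tested genes of the receptor complex and its proximal signalling, 15 lineage transcription factors, 13 genes of naive and recirculating cells, 24 of activated and resident cells, 12 of regulatory cells, 21 cytotoxic genes, 11 type 1 genes, 4 type 2 genes, 20 type 17 and γδ genes, 8 inhibitory receptors, 15 cytokines, 28 cytokine receptors, 21 chemokine receptors and exit signals and 24 cell division genes, 0 passed the adjusted threshold in edgeR. DESeq2 called 1 of them that is named here, Trbc2, a receptor β chain constant gene (log2 fold change -0.52, adjusted p = 0.0349). Over all genes DESeq2 called 97 lower and 4 higher. At an unadjusted p under 0.05, 908 of all 7807 genes passed (361 higher and 547 lower). The inflammasome and IL-1 list had 1 called gene of 22, Nlrp3 itself, and the interferon list 1 of 26, Ifi27l2a. At an unadjusted p under 0.05 there were 8 of the 22 (36.4%, 3 higher and 5 lower) and 6 of the 26 (23.1%, 1 higher and 5 lower), against 11.6% of all genes. Il1b, the cytokine that the inflammasome matures, was 273, 356 and 332 CPM in the wild-type and 197, 26.7 and 152 CPM in the Nlrp3-/- libraries (-1.56 ± 0.448, adjusted p = 0.195), without overlap. The paper reports Il1b mainly in macrophages. In these members the neutrophil list was also lower in the Nlrp3-/- libraries, without overlap, while sums of the monocyte and macrophage list overlapped. What part of the Il1b level came from RNA of other cells was not tested. Of 27 immediate-early and dissociation genes 0 were called, while 7 had an unadjusted p under 0.05, all lower, and the median log2 fold change was -0.22. Among them Dusp2, a phosphatase induced by receptor signals, was 328, 364 and 413 CPM in the wild-type and 217, 226 and 285 CPM in the Nlrp3-/- libraries (log2 fold change -0.81 ± 0.181, adjusted p = 0.0983, 0.0299 without wild-type replicate 3 and 0.00318 with DESeq2).

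Of the 12 tested regulatory genes, 5 had an unadjusted p under 0.05, and 4 of these were higher in the Nlrp3-/- libraries. None was called by edgeR, and the 5 are 41.7% of the list, against 908 (11.6%) of all 7807 genes. A raised share was not particular to regulatory genes. At the same threshold there were 6 of 15 cytokines (3 higher and 3 lower) and 2 of 4 type 2 genes (2 higher). Of the activated and resident genes there were 6 of 24 (1 higher and 5 lower). Shares below that of all genes were found for the receptor complex (1 of 31) and cell division (2 of 24). The groups did not overlap for 4 of the 12 regulatory genes, against 21.7% over all genes. The levels that follow are sums over all T cells, so they can move with the mix of classes. The Cd4 class was 10.7%, 11.01% and 11.2% of T cells in the wild-type and 13.9%, 9.79% and 19.1% in the Nlrp3-/- libraries. Its part in these levels was not tested. Il2ra was 34.1, 50.9 and 32.6 CPM in the wild-type and 120, 69.5 and 105 CPM in the Nlrp3-/- libraries (log2 fold change 1.09 ± 0.259, adjusted p = 0.122). Il1rl1 was 6.82, 21.4 and 7.76 against 31.2, 41.7 and 82.6 CPM (1.84 ± 0.453, adjusted p = 0.132). Leaving out Nlrp3-/- replicate 3 brought the log2 fold change to 1.33, and leaving out wild-type replicate 2 brought it to 2.62. For Il2ra, Il1rl1 and Areg (0.56 ± 0.205, adjusted p = 0.311) the groups did not overlap, while for Ctla4 (0.73 ± 0.284, adjusted p = 0.333) Nlrp3-/- replicate 2 lay within the wild-type range. Foxp3 itself was 18.2, 27.5 and 14.0 against 24.1, 34.2 and 48.4 CPM, which overlapped (0.59 ± 0.334, adjusted p = 0.504). The member that was lower at an unadjusted p under 0.05 was Ikzf4, a transcription factor of the Ikaros family (-0.88 ± 0.367, adjusted p = 0.373), without overlap. Of the 12 genes 8 had a log2 fold change above 0, and Tnfrsf18 (-0.40 ± 0.234, adjusted p = 0.515), Izumo1r (-0.056) and Tnfrsf4 (-0.048) lay below it with Ikzf4. After thinning to 1000 UMIs per cell the log2 fold change was 0.51 for Il2ra and 0.13 for Areg, and under the stricter limits it was 0.32 for Areg and 0.39 for Foxp3. The innate lymphoid markers summed to 520 to 742 CPM in the wild-type and 815 to 1292 CPM in the Nlrp3-/- T cells, with 9 of the 10 genes detected. In the members without a receptor constant UMI they summed to 88.9 to 236 CPM in the wild-type and 401 to 1029 CPM in the Nlrp3-/- libraries. Of the 6 tested, 6 had a log2 fold change above 0 and 0 were called by edgeR. An unadjusted p under 0.05 was found for 2 of them (33.3%, against 11.6% of all genes), Il1rl1 and Areg. These 2 are on both lists, and the part of innate lymphoid cells was not tested.

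Of the 21 tested genes of chemokine receptors and exit signals, 0 were called by edgeR and 4 had an unadjusted p under 0.05 (19.0%, against 11.6% of all genes), 3 higher and 1 lower. The groups did not overlap for 6 of the 21 (28.6%), against 21.7% over all genes. Cxcr3, which guides T cells into inflamed tissue, was 39.8, 21.4 and 35.7 CPM in the wild-type and 68.4, 64.2 and 63.4 CPM in the Nlrp3-/- libraries (log2 fold change 0.82 ± 0.252, adjusted p = 0.225). P2rx7, the ATP receptor that can set off the inflammasome, was 5.68, 10.2 and 6.21 against 30.2, 31.0 and 16.7 CPM (1.54 ± 0.398, adjusted p = 0.152). Neither passed the threshold, and the groups did not overlap for either. With no filter on low counts P2rx7 did pass (1.55, adjusted p = 0.014).

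Of the 21 cytotoxic and 11 type 1 genes tested, 0 were called by edgeR, with 4 and 3 at an unadjusted p under 0.05 (19.0% and 27.3%, against 11.6% of all genes). The 4 cytotoxic genes were 2 higher and 2 lower, and the 3 type 1 genes were all higher. Log2 fold changes lay above 0 for 12 of the 21 and 8 of the 11. Gzmm, a granzyme, had 1.40 (adjusted p = 0.183) and Il18r1, of the type 1 list, 0.60 (adjusted p = 0.43). Each of these 2 passed in 1 alternative fit. Ccl5 was 2638, 2457 and 5739 CPM in the wild-type and 2395, 4595 and 3884 CPM in the Nlrp3-/- libraries (log2 fold change -0.18 ± 0.293, adjusted p = 0.84), with its high values in wild-type replicate 3 and Nlrp3-/- replicate 2, the libraries with the largest Cd8a class, and without wild-type replicate 3 or Nlrp3-/- replicate 1 the log2 fold change was 0.25 and 0.05. Ifng was 128, 145 and 188 against 212, 155 and 153 CPM (-0.03 ± 0.204, adjusted p = 0.974), and its sign also turned without wild-type replicate 3 (0.077), without Nlrp3-/- replicate 2 (0.035) and without Nlrp3-/- replicate 3 (0.071). Gzma was 92.0, 38.6 and 368 against 24.1, 17.1 and 136 CPM (-1.59 ± 0.732, adjusted p = 0.429). The groups overlapped, and the log2 fold change of Gzma was -0.35 without wild-type replicate 3 and -3.12 without Nlrp3-/- replicate 3. The NK marker list, which holds Gzma, summed to 129 to 669 CPM in the wild-type and 172 to 327 CPM in the Nlrp3-/- T cells, with Ncr1 at 0 by the rule. Tnf was 86.3, 154 and 85.3 against 61.3, 90.9 and 78.4 CPM (-0.72 ± 0.261, adjusted p = 0.305).

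**Figure D5:**
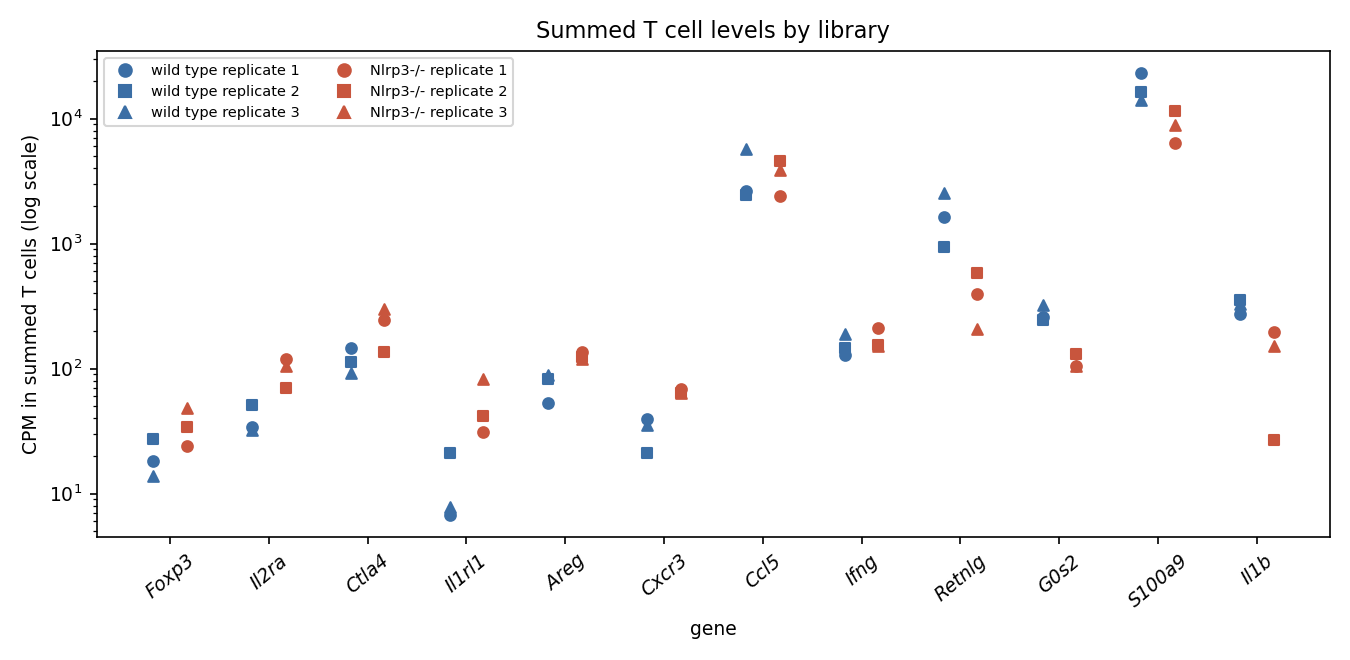
Level of 12 genes in summed T cells (vertical axis, CPM on a log scale) in each library, with wild-type libraries to the left and Nlrp3-/- libraries to the right within each gene. The groups separate for Il2ra, Il1rl1, Areg, Cxcr3, Retnlg, G0s2, S100a9 and Il1b, of which Retnlg and G0s2 passed the test, and overlap for Foxp3, Ctla4, Ccl5 and Ifng.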

How the data were processed

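Raw matrices of UMI counts per gene and barcode were deposited by the authors for 6 libraries (32285 genes each), made with 10x Genomics 3′ chemistry and no normalization. The submitters' processing notes name Cell Ranger 2.1.1 and mm10, while the matrix headers name Cell Ranger 4. Gene positions are from the GENCODE annotation of GRCm38, which held 32235 of the identifiers. T cells were taken by the stated limits. No doublet caller was run; the limits on other lineages and stricter ones stood in for it. Members and lists were chosen with earlier results of these data known.

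Counts were summed per library over T cells, and over the Cd8a class, and tested with the edgeR 4.0.16 quasi-likelihood test (R 4.3.3, TMM, filterByExpr). The test was also run on counts simulated from the levels and dispersions of these same data. Of planted changes of 2 and 3 on the log2 scale it recovered 93% and 98% in T cells. In the Cd8a class it recovered 95% and 99%. Smaller changes were not simulated. The library was the replicate. Each SE of an edgeR log2 fold change was calculated back from the test, as its absolute value divided by the square root of the F statistic. The Cd4 class, the Trdc class and the planned interactions (T with NK cells, Cd4 with Cd8a class) were not fitted, because at least 1 library had under 20 cells. Shares were tested with an exact two-sided permutation test over 20 assignments, and their Wilson intervals were computed with scipy 1.17.1. The genes named are those called, at most 10 in each direction (3 for the class), with the largest fold change and with a mean of at least 20 CPM, no overlap and no predicted symbol, plus list genes. Alternatives were RLE size factors, no filter, DESeq2 1.42.0, other limits on UMIs, mitochondrial share and Cd3, thinning to 1000 UMIs, a replicate block, leaving out each library and, chosen after seeing the data, a receptor constant UMI in every member.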

Additional observations from a re-analysis of the deposited data

How the results depend on the processing

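The difference in the share of T cells between genotypes (0.37 points), in T cells among T and NK cells (9.11 points), in the Cd4 class (3.32 points) and in Foxp3-positive cells of that class (13.5 points) kept its sign under every alternative run, with ranges of 0.0898 to 0.726, 7.46 to 11.1, 0.89 to 5.56 and 11.5 to 16.4 points over the fits that left out 1 library. The sign was not stable for the Trdc class (-0.21 points; -4.07 to 2.7 without 1 library, 0.0605 at a minimum of 500 UMIs and 1.09 at 2000), the Cd8a class (2.06 points; -3.11 to 8.34 without 1 library) and dividing cells (0.615 points; -1.64 to 2.95 without 1 library). The number of genes called in T cells (30) ranged from 11 to 336 without 1 library. It was 252 with no filter on low counts, 101 with DESeq2, 18 with at least 3 Cd3 UMIs, 13 under the stricter limits, 13 after thinning and 19 with a receptor constant UMI required; the last of these was chosen after seeing the data. DESeq2 gave no adjusted p for 7265 of the 7807 genes, 27 of the 30 among them. The number called in the Cd8a class (2) ranged from 2 to 11 without 1 library, and was 56 with no filter, 4 with DESeq2 and 7 with the replicate block. Without 1 library in turn, the log2 fold changes ran from -0.30 to 4.27 for Il17a and from -1.69 to 6.66 for Il17f, both lowest and of the other sign without Nlrp3-/- replicate 1, from -0.40 to 0.25 for Ccl5 and from -0.20 to 0.077 for Ifng. The causes were not tested. Same-numbered libraries correlated at 0.1137, -0.2036 and -0.0041 in T cells in their deviations from the group means. Differently numbered libraries of the 2 genotypes correlated at -0.2211 to 0.2223. Deviations of 3 libraries from their own mean sum to 0, so these values cannot settle whether replicate numbers pair the libraries. With the replicate block 26 genes were called in T cells. Gzma passed the threshold with the replicate block (-1.72, adjusted p = 0.0129) and with no filter (-1.58). Of 25 named genes that were not called, 14 passed with no filter, namely Il17f (adjusted p = 4.43e-39), Il17a (7.96e-39), S100a8 (1.03e-12), S100a9 (3.51e-10), Il1b (1.84e-09), Gzma (7.09e-09), Il1rl1 (3.56e-06), Jun (0.000752), Gzmm (0.000798), Ifi47 (0.00116), Il2ra (0.00164), P2rx7 (0.014), Dusp2 (0.0182) and Maf (0.031). Over all genes 252 of 16743 passed in that fit, and the named genes were picked, not drawn at random. The fit with no filter was not run without Nlrp3-/- replicate 1, whose removal turned the sign of Il17a and Il17f in the filtered fit. The calls of G0s2 (0.242), Hcar2 (0.237), Chil3 (0.234), Acod1 (0.169) and Ifi27l2a (0.0533) were lost with at least 3 Cd3 UMIs, those of Hcar2 (0.0568) and Ifi27l2a (0.0674) with the replicate block, and that of Hcar2 (0.0844) at a minimum of 2000 UMIs, each with its adjusted p from edgeR. The classes held as few as 11 cells in a library, and only Cd8a was fitted.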

Other observations

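Beyond the comparisons above, 735 of the 1368 T cells held no UMI of Cd4, Cd8a or Trdc. Genes of all 3 classes were seen among them. Ccl5 was found in 419 of them (57.0%), Nkg7 in 411 (55.9%), Cd8b1 in 124 (16.9%), Ctla4 in 146 (19.9%) and Foxp3 in 53 (7.21%), while Cd163l1 was found in 9 (1.22%) and Tcrg-C1 in 29 (3.95%). Their median depth per library was 2411 to 3326 UMIs, and that of the Cd4 class was 2655.5 to 3500 UMIs.

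Pdcd1, the inhibitory receptor PD-1, was found in 67 of the 179 cells of the Trdc class (37.4%), 35 of the 181 cells of the Cd4 class (19.3%), 13 of the 269 cells of the Cd8a class (4.83%) and 0.246% of B cells. After thinning to 1000 UMIs per cell it was found in 15.1%, 5.52% and 2.23% of the classes in that order. In T cells the 10 thymocyte genes summed to 118 to 263 CPM, and they include Cd8b1 and Themis of mature cells.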
